A study of Arabidopsis thaliana with 36 samples.

Results

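The arrays compared here set FRI flc-3, an early-flowering Arabidopsis thaliana line with a mutated FLC, against FRI, the line without that mutation, after 3 long days. They were chosen from the labels by line and by number of long days, which gave 3 FRI flc-3 arrays and 3 FRI arrays, 6 of the 36 arrays of the series. Both lines carry the FRI allele of the accession Sf-2 in a Col background, and FRI flc-3 has in addition flc-3, which the labels describe as a fast-neutron allele of FLC. All plants grew on soil in short days before the move to long days, and RNA came from the apical region. The labels give the stage of the FRI flc-3 plants at day 3 as transition to flowering and that of the FRI plants as vegetative. Day 0 arrays, taken before any long day, and arrays of days 5 and 7 exist for both lines, as do arrays of flc-3, a line with the flc-3 allele in Col and without the Sf-2 allele of FRI. The 3 flc-3 arrays of day 3, also labelled as in transition to flowering, are used here for levels.

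FRI activates transcription of FLC, a MADS-domain repressor of flowering. FLC protein binds genes that promote flowering, among them FT in the leaf and SOC1 and FD in the shoot apex, and keeps their expression low. In long days the leaf sends FT protein to the apex, where it acts together with the bZIP protein FD to start the floral programme, and this step is held back where FLC is active.

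Each array measured 22810 probe sets, and the values are MAS5 signals, an intensity on a linear scale. The median signal of the 6 arrays lay between 40.8 and 41.9. Pearson correlations of log2(signal + 16) were 0.9895 to 0.9920 between FRI flc-3 arrays and 0.9907 to 0.9933 between FRI arrays, and 0.9866 to 0.9898 between arrays of different lines. The labels name no hybridization or scan batch and do not state whether replicates were separate pools of plants, so p-values measure only the spread between these samples, which may be technical. The annotation used here gives no probe set the name FLC, FRI or SOC1, so the flc-3 label was not checked on the transcript of FLC itself. Of 20 shoot meristem markers 1, LAS, was tested, with signals of 24.2, 27.9 and 31.5 in FRI flc-3, against 26.9, 25.0 and 23.4 in FRI. None of 13 root markers and none of 15 vascular markers could be tested. The annotation gave a probe set of its own to 2 of the 20 shoot meristem markers, 1 of the root markers and 0 of the vascular markers. In this and the other lists, most untested genes had no probe set named for that gene alone. Their levels are therefore not known here.

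After 3 long days the lines differed at few probe sets. Of 14912 tested, 335 (2.25%) passed an adjusted p under 0.05 in limma. Of these, 146 (0.979% of those tested) were higher in FRI flc-3 and 189 (1.27%) were lower. The 3 arrays of each line did not overlap at 1402 probe sets (9.4%) with FRI flc-3 above FRI and at 1282 (8.6%) with FRI flc-3 below. That is far more than were called, but 3 against 3 arrays also part by chance at a share of probe sets. For a single probe set, non-overlap alone is therefore no evidence of a difference, and these counts were not set against a share expected by chance. The loci and unnamed probe sets named for the largest differences were chosen among called ones without overlap, so their separation follows from the choice. Differences were taken on log2(signal + 16), a scale that damps the noise of dim probe sets and understates their change, and are FRI flc-3 minus FRI throughout. On this scale 16 probe sets (0.107%) passed the threshold with a difference of over 2-fold, 10 of them with more signal in FRI flc-3 and 6 with less. The median of the called differences was 0.43 among the higher and -0.43 among the lower, while the median over all tested probe sets was 0.007. The count rests on the size of the fit and on single arrays: it was 221 when only the 6 arrays were fitted and 220 without FRI replicate 2. Of the 8041 loci with a name, 145 (1.8%) were called, 60 higher and 85 lower. As the tissue was taken whole, a lower signal may mean fewer cells of a type or less RNA per cell, and these cannot be told apart.

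**Figure D1:**
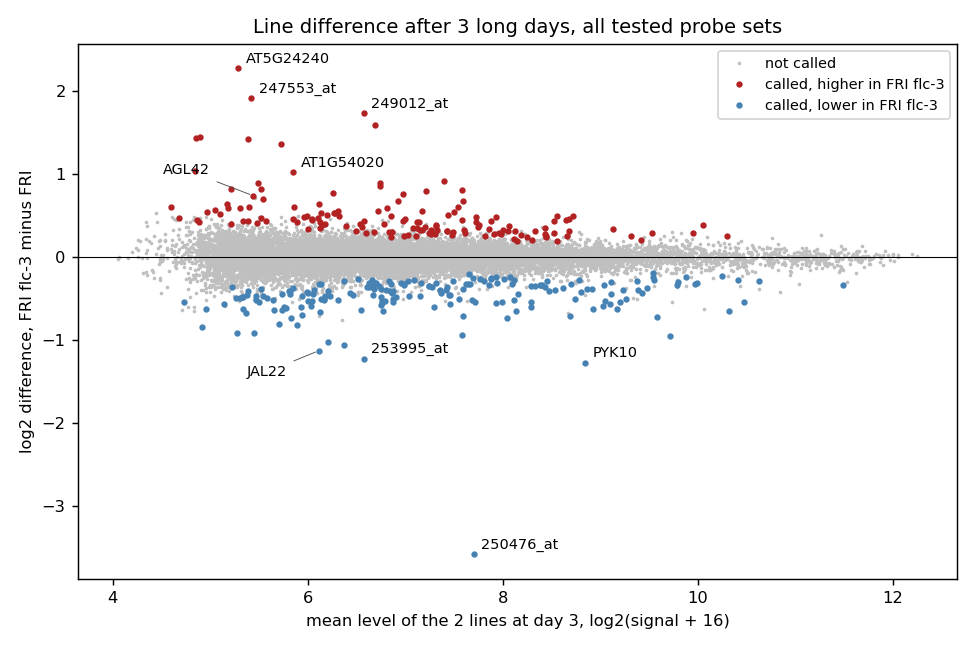
Each point is 1 of 14912 probe sets. The x axis gives the mean level of both lines at day 3 as log2(signal + 16) and the y axis the log2 difference, FRI flc-3 minus FRI. Red points (146) were called higher in FRI flc-3, blue points (189) lower, and grey points were not called. Most called differences are small and 250476_at stands far below the rest at -3.59.

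Among genes that promote flowering, AGL42 and FD were higher in FRI flc-3. AGL42, a MADS-domain gene of the SOC1 subfamily, gave signals of 40.3, 40.01 and 40.02 in FRI flc-3, against 18.1, 19.5 and 15.3 in FRI. All FRI flc-3 arrays lay above all FRI arrays and hardly differed from each other. The log2 difference was 0.74 ± 0.09 (SE), adjusted p = 6.01e-07, with a ratio of the mean signals of 2.27. The AGL42 mean in FRI was in the dim range, and its difference was 1.15 at an offset of 1 and 0.35 at an offset of 64. FD, the bZIP partner of FT at the apex, gave 56.2, 56.6 and 53.6 in FRI flc-3, against 31.4, 26.6 and 35.2 in FRI. The groups were again apart, with a log2 difference of 0.61 ± 0.11 (SE), adjusted p = 0.00063. In AGL24, a MADS-domain activator of SOC1, the signals were 191, 193 and 194 in FRI flc-3, against 172, 174 and 163 in FRI. The AGL24 arrays did not overlap either, but the difference of 0.17 ± 0.09 (SE) did not pass the test (adjusted p = 0.498, 95% interval -0.02 to 0.36). Of 24 floral integrators and promoters in the list these 3 were tested, so the list gave 2 higher, 0 lower and a median of 0.61. Over all tested probe sets 0.979% were called higher.

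The few floral repressors and floral organ genes that could be tested gave no call at day 3. Of 19 repressors 2 were tested. The AP2-like repressor SMZ gave 15.3, 16.0 and 16.1 in FRI flc-3, against 26.4, 23.3 and 24.4 in FRI, and its lower signals in FRI flc-3 stayed short of the threshold at -0.36 ± 0.10 (SE), adjusted p = 0.0583. The SMZ mean in FRI flc-3 was in the dim range. AGL18, a MADS-domain repressor, gave 63.0, 61.1 and 49.1 in FRI flc-3, against 45.1, 46.5 and 63.1 in FRI with overlapping arrays. Of 15 floral meristem and organ genes 2 were tested. UFO, the F-box partner of LFY, had 13.3, 3.32 and 6.47 in FRI flc-3, against 1.05, 1.096 and 2.05 in FRI. These signals are dim on every array, higher on each FRI flc-3 array than on any FRI array, and the difference was 0.43 ± 0.13 (SE), adjusted p = 0.0912. PUCHI, an AP2/ERF gene of floral meristem identity, gave 20.0, 30.9 and 17.4 in FRI flc-3, against 11.1, 10.4 and 18.1 in FRI, with overlap and a difference of 0.40 ± 0.14 (SE), adjusted p = 0.169. SMZ passed the threshold in limma in 5 alternatives, at an offset of 64, with quantile normalization, with a filter on the 6 arrays, with no trend and with array weights (adjusted p 0.0223 to 0.0462). UFO passed without FRI flc-3 replicate 2 (adjusted p = 0.0232), at an offset of 1 and one equal to the 10th percentile of the signals (adjusted p = 0.0378 and 0.0401) and with array weights (adjusted p = 0.0301). At an unadjusted p under 0.05 limma gave 1 of the repressors, SMZ, and both floral meristem and organ genes.

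The few regulators upstream of flowering that could be tested gave no call at day 3. Of 25 FLC regulators 3 were tested and 0 called. FY, an RNA 3′-end processing factor of the autonomous pathway, averaged 96.8 ± 12.1 in FRI flc-3 and 94.2 ± 5.29 in FRI (SD, n = 3 each), and LD, a homeodomain protein of the same pathway, 92.6 ± 3.06 in FRI flc-3 and 87.3 ± 5.83 in FRI. AT2G30120 averaged 20.2 ± 4.02 in FRI flc-3 and 21.0 ± 4.12 in FRI. Differences in the 3 were between -0.03 and 0.07. Of 32 photoperiod and clock genes 2 were tested and 0 called: GI, which links the clock to CO, differed by 0.03 (adjusted p = 0.953) and AT1G69570, a DOF factor, by -0.12 (adjusted p = 0.801). Of 33 gibberellin genes 5 were tested and 0 called. The receptor gene GID1C had 20.5, 19.3 and 20.7 in FRI flc-3, against 10.2, 13.2 and 12.7 in FRI, apart on all arrays at dim signals, with a difference of 0.37 ± 0.11 (SE), adjusted p = 0.0782. The related receptor genes GID1A and GID1B differed by -0.03 and 0.06, and SLY1, an F-box gene of gibberellin signalling, by -0.03. Over these 3 lists limma gave 0 calls, and GID1C was the 1 member at an unadjusted p under 0.05 (its adjusted p was 0.0308 with array weights and 0.0434 with no trend).

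**Figure D2:**
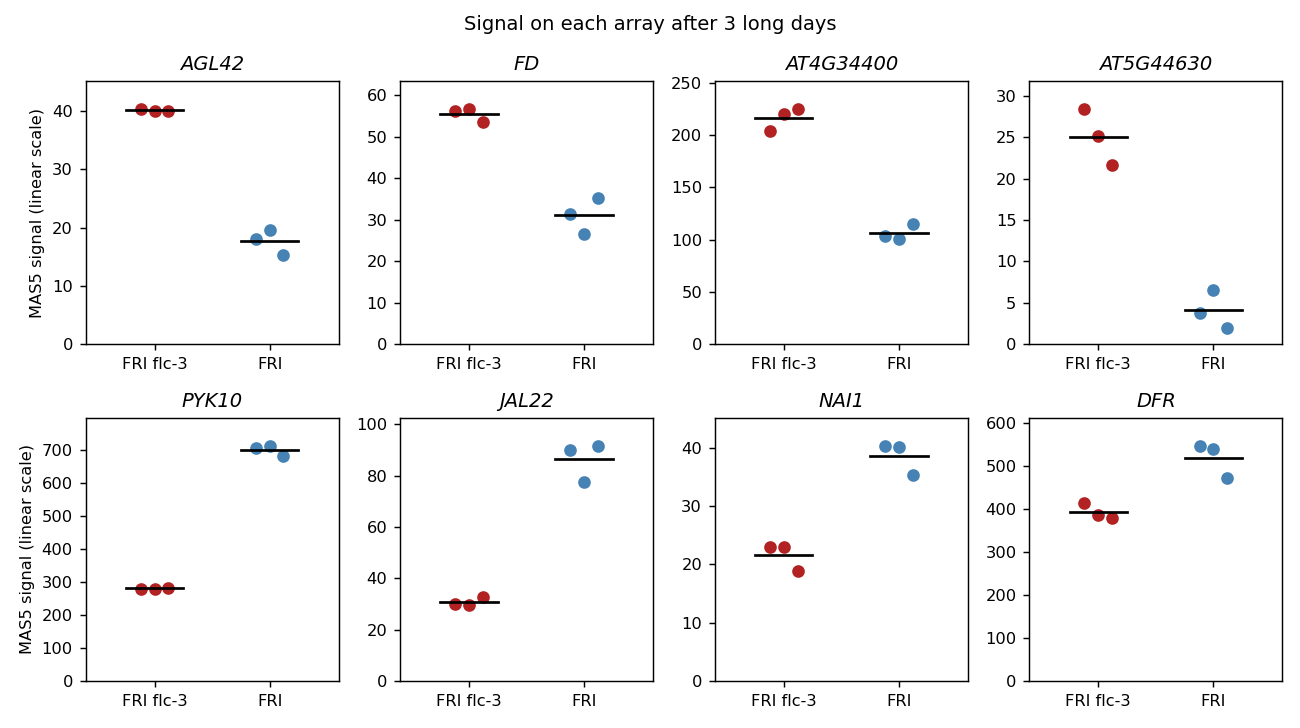
MAS5 signal on a linear axis from 0 for 8 loci, with 1 point per array and a bar at the mean of 3. Red points are FRI flc-3 and blue points FRI. In the upper row all FRI flc-3 arrays lie above all FRI arrays, in the lower row all lie below.

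The named loci with the largest higher signals in FRI flc-3 came from several classes of genes. AT5G44630, a sesquiterpene synthase, gave 28.4, 25.2 and 21.7 in FRI flc-3, against 3.76, 6.50 and 2.02 in FRI, and its difference was 1.03 ± 0.14 (SE), adjusted p = 6.7e-06. AT1G54020, a GDSL-type lipase, gave 72.2, 59.0 and 68.0 in FRI flc-3, against 21.1, 28.5 and 24.1 in FRI, with a difference of 1.02 ± 0.10 (SE), adjusted p = 6.79e-09. In both the groups were far apart, and in AT5G44630 the FRI arrays were dim. AT4G34400, a B3-domain transcription factor, gave 203.5, 220.3 and 225 in FRI flc-3, against 104, 101 and 115 in FRI, with a difference of 0.92 ± 0.09 (SE), adjusted p = 1.92e-08. AT2G21130, a cyclophilin, gave 138, 119.6 and 134 in FRI flc-3, against 57.5, 62.5 and 67.8 in FRI, with a difference of 0.90 ± 0.09 (SE), adjusted p = 6.79e-09. Both were well above the dim range in each line. Arrays without overlap were a condition for choosing these loci, so their separation adds no support. AT3G28500, an acidic ribosomal protein of the P2 type, had 239, 211.4 and 265 in FRI flc-3, against 120.4, 139 and 127 in FRI, a difference of 0.81 ± 0.11 (SE), adjusted p = 2.55e-06.

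Among the 14 named loci of largest higher difference the adjusted p ran from 2.98e-18 to 0.0194, and 6 had a mean in the dim range in FRI. CYP71B22, a cytochrome P450, gave 48.3, 40.6 and 42.0 in FRI flc-3, against 18.4, 20.4 and 22.9 in FRI (log2 difference 0.71 ± 0.11 (SE), adjusted p = 4.57e-05). For AT5G09300, which encodes a subunit of the branched-chain keto acid dehydrogenase, the signals were 69.4, 76.1 and 65.7 in FRI flc-3, against 44.8, 34.6 and 39.7 in FRI (difference 0.64 ± 0.09 (SE), adjusted p = 6.25e-06). AT3G15650 averaged 112 ± 4.88 in FRI flc-3 and 71.1 ± 6.15 in FRI and AT4G19430 32.6 ± 0.247 in FRI flc-3 and 16.3 ± 2.85 in FRI, with differences of 0.56 and 0.59. AT1G10980 gave 156, 157 and 162 in FRI flc-3, against 98.6, 97.6 and 112 in FRI, a difference of 0.56 ± 0.14 (SE), adjusted p = 0.0194. The arrays of AT1G10980 were apart by a wide margin, yet its call was lost when FRI replicate 1 or 2 or any FRI flc-3 array was left out (adjusted p 0.0592 to 0.0983).

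AT5G24240, the named locus with the largest difference, had 66.8, 65.6 and 78.3 in FRI flc-3, against 2.12, 1.49 and 1.64 in FRI at day 3, a difference of 2.28 ± 0.10 (SE), adjusted p = 2.98e-18. In flc-3 its signals were 1.62, 1.80 and 0.782, as low as in FRI. At day 0 it gave 78.6, 66.7 and 71.0 in FRI flc-3, against 1.59, 2.83 and 2.43 in FRI, so the difference was already there in short days. The unnamed probe set 253995_at gave 50.2, 55.0 and 35.1 in FRI flc-3, against 126, 135 and 126 in FRI (difference -1.22 ± 0.09 (SE), adjusted p = 5.21e-12) and 150.3, 118 and 130.5 in flc-3. Here FRI flc-3 was low while both other lines were high, and at day 0 the difference was -1.16. The FRI arrays serve both comparisons, so the flc-3 values are given beside them for single loci, with no test and no count over the named loci.

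The unnamed probe set 250476_at had the largest difference of all, with 41.2, 44.1 and 47.4 in FRI flc-3, against 687, 736 and 699 in FRI, a difference of -3.59 ± 0.08 (SE), adjusted p = 4.29e-27. In flc-3 it gave 32.1, 36.4 and 27.4. The unnamed probe set 247553_at gave 64.4, 70.9 and 64.1 in FRI flc-3, against 2.63, 13.1 and 3.13 in FRI (difference 1.92 ± 0.14 (SE), adjusted p = 2.86e-12), and 249012_at gave 164, 143 and 166 in FRI flc-3, against 44.2, 34.9 and 29.9 in FRI (difference 1.74 ± 0.10 (SE), adjusted p = 3.07e-15). In flc-3, 247553_at gave 46.9, 53.3 and 46.5, above all FRI arrays and below all FRI flc-3 arrays, and 249012_at gave 139.5, 158 and 168, among the FRI flc-3 arrays. AGL42 stood at 41.0, 39.3 and 42.4 and FD at 63.5, 56.3 and 53.8 in flc-3, close to FRI flc-3 in each.

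PYK10, NAI1 and 3 jacalin-related lectin genes were lower in FRI flc-3. ER bodies are compartments of the endoplasmic reticulum in Brassicaceae that store PYK10, a beta-glucosidase that binds jacalin-related lectins when tissue is damaged. PYK10 gave 279.9, 279 and 283 in FRI flc-3, against 708, 713 and 681 in FRI, a log2 difference of -1.27 ± 0.07 (SE), adjusted p = 4.81e-15 and a ratio of mean signals of 0.401. The arrays within each line were nearly equal. The lectin gene JAL22 gave 30.0, 29.7 and 32.7 in FRI flc-3, against 90.1, 77.7 and 91.6 in FRI, a difference of -1.13 ± 0.09 (SE), adjusted p = 6.69e-11. JAL33 gave 38.2, 36.6 and 32.4 in FRI flc-3, against 86.3, 92.0 and 89.2 in FRI, a difference of -1.02 ± 0.12 (SE), adjusted p = 2.27e-07. JAL34 gave 137, 109.7 and 118 in FRI flc-3, against 234, 299 and 214.1 in FRI, a difference of -0.94 ± 0.11 (SE), adjusted p = 1.44e-07. In all 3 lectin genes the groups were apart, with FRI replicate 2 the highest array in JAL33 and JAL34 and the lowest FRI array in JAL22. NAI1, the bHLH factor that activates PYK10, had 22.9, 23.0 and 18.8 in FRI flc-3, against 40.3, 40.1 and 35.3 in FRI, a difference of -0.54 ± 0.13 (SE), adjusted p = 0.0127. The NAI1 mean in FRI flc-3 was in the dim range.

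Of 20 genes in the list of the ER body and PYK10 complex, 7 were tested, 5 were lower and 0 higher, and the median was -0.94. Over all tested probe sets 1.27% were called lower. The list was chosen with earlier results of these data known, so its count is no independent support. The members not called were NAI2, which shapes ER bodies, with 385 in FRI flc-3 and 449 in FRI as mean signals (difference -0.21, adjusted p = 0.313), and the lectin gene JAL23 with 161 in FRI flc-3 and 159.6 in FRI (difference 0.02, adjusted p = 0.974). JAL23 thus gave nearly equal signals in a list where the other lectin genes tested were lower. The call of NAI1 was lost without FRI replicate 1 (adjusted p = 0.0651), without FRI replicate 2 (adjusted p = 0.0662) and without FRI flc-3 replicate 3 (adjusted p = 0.0864). The JAL genes are a family of similar sequences, and cross-hybridization between them was not tested. PYK10 and JAL34 in flc-3 stood at 399, 412 and 406 and at 135, 132 and 130.3. PYK10 thus lay between the other lines there, and JAL34 near the FRI flc-3 arrays.

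Outside the list of the ER body and PYK10 complex, the loci of largest lower difference were single genes of several kinds. AT5G01870, a lipid transfer protein, was bright, with 1034, 929 and 1047 in FRI flc-3, against 1561, 1589.7 and 1612 in FRI (difference -0.66 ± 0.07 (SE), adjusted p = 1.83e-07). AT5G64110, a class III peroxidase, gave 152, 115 and 137 in FRI flc-3, against 238, 228 and 224 in FRI (difference -0.71 ± 0.09 (SE), adjusted p = 5.56e-07), and GH9B8, a cellulase of family GH9, gave 63.6, 78.5 and 71.2 in FRI flc-3, against 119.7, 129 and 113 in FRI (difference -0.65 ± 0.08 (SE), adjusted p = 2.24e-06). The groups were apart in the 3 loci, each with signals far above the dim range. GH9B8 gave 99.2, 113 and 89.5 in flc-3, above all FRI flc-3 arrays. GRXC1, a glutaredoxin, averaged 39.7 ± 6.55 in FRI flc-3 and 71.6 ± 5.30 in FRI (difference -0.66 ± 0.10 (SE), adjusted p = 7.93e-05). AT1G19960 had 36.2, 40.4 and 47.8 in FRI flc-3, against 98.3, 109.7 and 104 in FRI and a difference of -1.07 ± 0.11 (SE), adjusted p = 2.35e-08.

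A further group of lower loci had weaker signals. AT5G41400, a RING-type zinc finger protein, gave 33.5, 25.1 and 27.7 in FRI flc-3, against 65.6, 64.9 and 58.4 in FRI (difference -0.82 ± 0.13 (SE), adjusted p = 7.93e-05), and AT2G46150 gave 29.8, 30.0 and 36.9 in FRI flc-3, against 69.9, 69.2 and 48.6 in FRI (difference -0.70 ± 0.13 (SE), adjusted p = 0.000583). For AT3G20370 the signals were 21.9, 5.96 and 20.9 in FRI flc-3, against 43.3, 41.8 and 43.4 in FRI, with FRI flc-3 replicate 2 well below the other FRI flc-3 arrays (difference -0.91 ± 0.15 (SE), adjusted p = 8.35e-05). AT5G26200, a mitochondrial carrier protein, had 4.28, 6.99 and 8.34 in FRI flc-3, against 21.9, 26.1 and 25.2 in FRI (difference -0.84 ± 0.17 (SE), adjusted p = 0.00211) and 23.9, 21.4 and 19.6 in flc-3, near FRI. AT1G52100, a jacalin-related lectin, gave 26.7, 8.50 and 38.5 in FRI flc-3, against 53.7, 57.6 and 42.9 in FRI. Its difference of -0.80 ± 0.22 (SE), adjusted p = 0.0382 rests on FRI flc-3 replicate 2, without which it was -0.48 (adjusted p = 0.393). It was not called without FRI replicate 1, FRI replicate 2 or FRI flc-3 replicate 1 either (adjusted p = 0.13, 0.166 and 0.0594). Among the 14 named loci of largest lower difference, adjusted p ran from 4.81e-15 to 0.0382. Of these 2, AT3G20370 and AT5G26200, had a mean in the dim range in FRI flc-3. The difference of AT5G26200 was -1.79 at an offset of 1 and -0.33 at an offset of 64.

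Of 27 flavonoid genes 6 were tested, 3 were lower in FRI flc-3 and 0 higher, and the median difference was -0.24. Over all tested probe sets 1.27% were called lower. DFR, which makes leucoanthocyanidins, gave 413, 386 and 379 in FRI flc-3, against 546, 538 and 472 in FRI, a difference of -0.39 ± 0.07 (SE), adjusted p = 0.000327. AT4G14090, an anthocyanin 5-O-glucosyltransferase, gave 259, 241 and 286 in FRI flc-3, against 321, 362 and 329 in FRI (difference -0.35 ± 0.07 (SE), adjusted p = 0.00376), and AT5MAT, an anthocyanin malonyltransferase, gave 117, 116 and 106 in FRI flc-3, against 137, 148 and 148 in FRI (difference -0.32 ± 0.08 (SE), adjusted p = 0.0198). The groups did not overlap in these 3 enzymes. The other 3 tested were glycosyltransferases, with differences of -0.16 for UF3GT, -0.07 for UGT78D1 and -0.07 for UGT78D2 that did not pass. The call of AT4G14090 was lost without FRI replicate 2 (adjusted p = 0.0517). That of AT5MAT was lost without FRI replicate 2, FRI replicate 3 or FRI flc-3 replicate 3 (adjusted p = 0.0983, 0.0947 and 0.133).

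Photosynthetic leaf genes gave 1 call, where 1.27% of all tested probe sets were called lower. Of 31 such markers 7 were tested, 6 had a difference below 0, and LHCB4.2, an antenna protein of photosystem II, was lower, with 1074, 1169.8 and 1091 in FRI flc-3, against 1301, 1299 and 1314 in FRI (difference -0.23 ± 0.06 (SE), adjusted p = 0.0169). The call of LHCB4.2 was lost when any 1 array was left out except FRI flc-3 replicate 2 (adjusted p 0.0605 to 0.111). The median of the 7 was -0.15, and their summed signal was 6923, 7149 and 6678 in FRI flc-3, against 7784, 7775 and 7588 in FRI. The sums of the lines do not overlap, and the part that leaf tissue in the samples plays in the calls was not tested. Trichome and stomatal genes gave 3 tested of 11 and 0 called, with summed signals of 137, 127 and 139 in FRI flc-3, against 149, 138 and 128 in FRI. FMA, SPCH and TRY, the 3 tested, differed by 0.17, -0.15 and 0.06, and limma gave 0 of them at an unadjusted p under 0.05.

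Both wax genes that could be tested and 1 thionin gene were higher in FRI flc-3, where 0.979% of all tested probe sets were called higher. WSD1, a wax ester synthase, had 27.0, 21.7 and 23.5 in FRI flc-3, against 13.2, 5.55 and 15.3 in FRI, a difference of 0.57 ± 0.13 (SE), adjusted p = 0.01. AT1G02190, a CER1-like gene of wax synthesis, had 16.4, 21.7 and 15.9 in FRI flc-3, against 10.1, 6.89 and 9.65 in FRI, a difference of 0.45 ± 0.10 (SE), adjusted p = 0.0105. In both the signals were low and all FRI flc-3 arrays lay above all FRI arrays, and these were the 2 tested of 31 wax and cutin genes. The call of WSD1 was lost without FRI replicate 2 (adjusted p = 0.164) or FRI flc-3 replicate 1 (adjusted p = 0.068), at an offset of 64 (adjusted p = 0.125) and when only the 6 arrays were fitted (adjusted p = 0.0969). That of AT1G02190 was lost without FRI replicate 2 (adjusted p = 0.0948) or FRI flc-3 replicate 2 (adjusted p = 0.107), and when only the 6 arrays were fitted (adjusted p = 0.126). AT1G02190 was already called higher in FRI flc-3 at day 0 in limma, with a difference of 0.56 (adjusted p = 0.00142). Its change from day 0 to day 3 was -0.11 (adjusted p = 0.875). WSD1 was not called at day 0 (difference 0.15, adjusted p = 0.742). THI2.1, a thionin induced by jasmonate, had 57.9, 55.8 and 70.0 in FRI flc-3, against 43.0, 40.9 and 36.3 in FRI, a difference of 0.46 ± 0.11 (SE), adjusted p = 0.00997. That call was lost without replicate 3 of FRI (adjusted p = 0.0726) or of FRI flc-3 (adjusted p = 0.104), at an offset of 1 (adjusted p = 0.169) and at one equal to the 10th percentile of the signals (adjusted p = 0.145). The related gene THI2.2 lay on the other side, with 39.4, 50.7 and 54.1 in FRI flc-3, against 72.0, 67.0 and 65.1 in FRI and a difference of -0.40 ± 0.20 (SE), adjusted p = 0.45. These were the 2 tested of 24 jasmonate and thionin genes.

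Iron deficiency genes gave 1 call among 2 tested of 21, where 1.27% of all tested probe sets were called lower. AT1G47400, which encodes a small peptide of the iron deficiency response, had 20.7, 27.6 and 24.6 in FRI flc-3, against 41.4, 44.7 and 54.0 in FRI, lower on every FRI flc-3 array (difference -0.64 ± 0.11 (SE), adjusted p = 0.000186). PYE, a bHLH regulator of that response, averaged 53.4 ± 4.96 in FRI flc-3 and 52.3 ± 6.40 in FRI with no call. Of 12 terpene synthases AT5G44630 alone was tested.

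**Figure D3:**
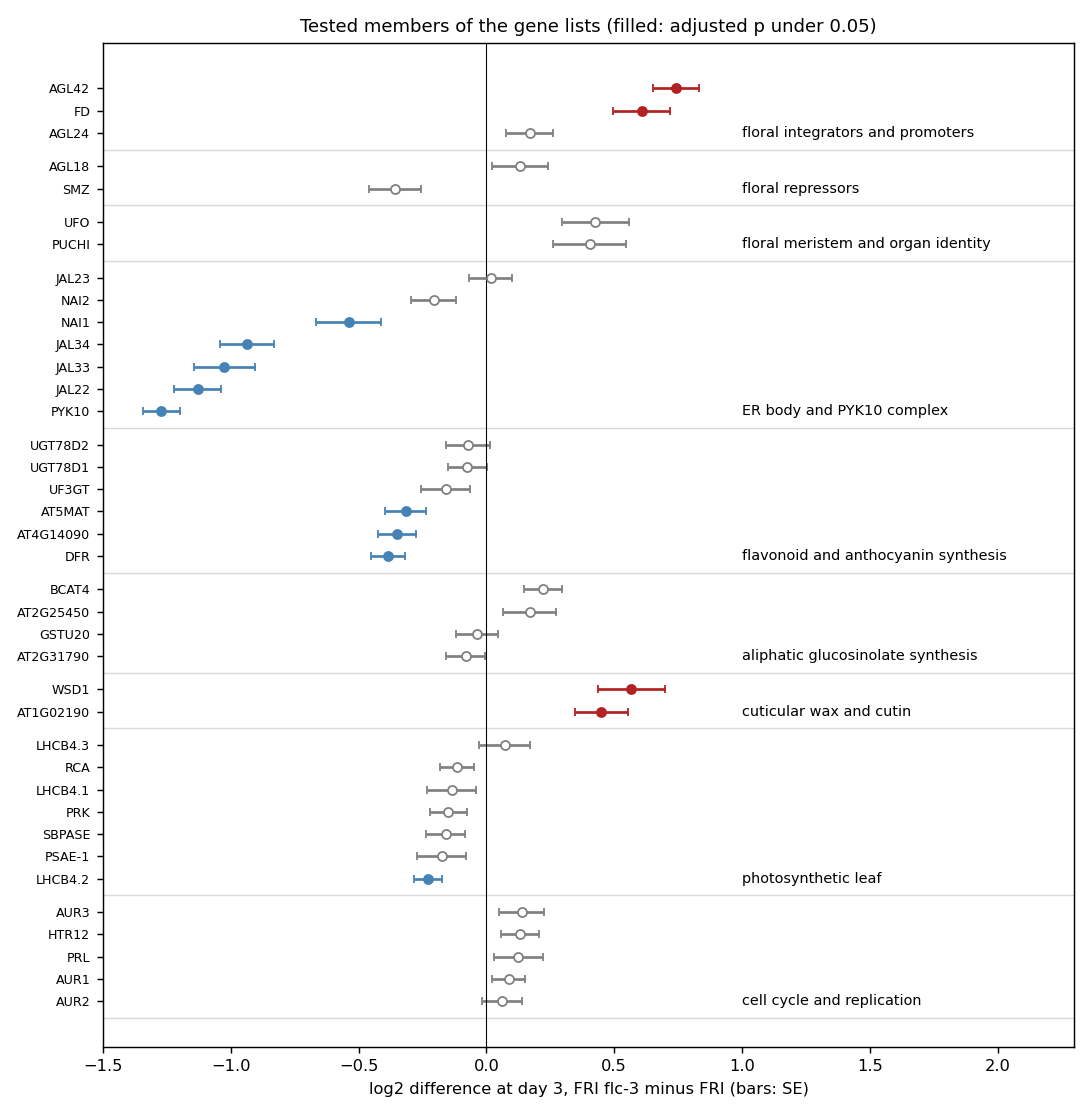
Log2 difference at day 3, FRI flc-3 minus FRI, with its SE for the tested members of 9 lists. Filled points passed an adjusted p under 0.05 (red higher, blue lower), open points did not. The list of the ER body and PYK10 complex holds 5 of the blue points, and the cell cycle list lies right of 0 with no call.

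The remaining lists gave 0 calls at day 3 in limma. All 5 tested of 41 cell cycle and replication genes had a difference above 0, from 0.06 for the mitotic kinase AUR2 to 0.14 for AUR3, with a median of 0.12 and 0 at an unadjusted p under 0.05. HTR12, the centromeric histone, gave 103, 100.5 and 111 in FRI flc-3, against 98.2, 91.6 and 93.0 in FRI, apart but by a small step (difference 0.13 ± 0.07 (SE), adjusted p = 0.528). Of 18 autophagy genes 10 were tested, with a median of -0.07 and 1, APG8A, at an unadjusted p under 0.05 (difference -0.28, adjusted p = 0.259). Of 20 cold and dehydration genes 4 were tested, 0 at an unadjusted p under 0.05, and COR15A averaged 19.0 ± 5.67 in FRI flc-3 and 24.2 ± 2.199 in FRI. At day 0 limma called COR15B higher in FRI flc-3 (0.60, adjusted p = 0.00268) and LTI30 lower (-0.59, adjusted p = 0.0106). Their changes from day 0 to day 3 did not pass (adjusted p = 0.111 and 0.21). The indole glucosinolate list had 1 tested gene of 17, UGT74B1, with a difference of -0.02 (adjusted p = 0.964) and 0 at an unadjusted p under 0.05.

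The tested aliphatic glucosinolate genes gave no call at day 3, although the lines differed in some of them before. BCAT4, the first enzyme of methionine chain elongation, had 267, 282 and 237 in FRI flc-3, against 208.02, 206.4 and 253 in FRI at day 3, with overlap and a difference of 0.22 ± 0.07 (SE), adjusted p = 0.133. At day 0 it gave 854, 927 and 951 in FRI flc-3, against 1082, 1119 and 1164 in FRI, lower on every FRI flc-3 array, with a difference of -0.30 ± 0.07 (SE), adjusted p = 0.0302. AT2G25450, a dioxygenase of side chain modification, gave 73.4, 65.9 and 65.8 in FRI flc-3, against 58.0, 61.1 and 58.0 in FRI at day 3 and 380.0, 364 and 383 in FRI flc-3, against 572, 592 and 630.5 in FRI at day 0. The difference in AT2G25450 was 0.17 (adjusted p = 0.589) at day 3 and -0.65 (adjusted p = 0.000243) at day 0. Signals of both genes were several times lower at day 3 than at day 0 in each line. Of 30 genes in the list 4 were tested, and the other 2, GSTU20 and AT2G31790, differed by -0.04 and -0.08 at day 3. BCAT4 alone of the 4 had an unadjusted p under 0.05 at day 3, and it passed without FRI replicate 3 (adjusted p = 0.0207) and with array weights (adjusted p = 0.046). The change from day 0 to day 3 was 0.52 (adjusted p = 0.00718) for BCAT4 and 0.82 (adjusted p = 0.00258) for AT2G25450. Both calls of a change were lost at an offset of 1 (adjusted p = 0.0871 for BCAT4 and 0.583 for AT2G25450) and of the 10th percentile (adjusted p = 0.0749 and 0.485).

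The line differences of day 3 were set against those of day 0. The series has no arrays of plants kept in short days until day 3. Effects of long days and of plant age can therefore not be told apart here. FRI flc-3 replicate 3 of day 0 stood somewhat apart, with Pearson correlations of 0.9846 and 0.9856 with the other arrays of its group, while the pairs of FRI arrays at day 0 had 0.9912 to 0.9917. At day 0 limma called 199 probe sets (1.33%), with FRI flc-3 above FRI at 66 (0.443%) and below it at 133 (0.892%). Of the 146 called higher at day 3, 22 (15.1%) were also called higher at day 0, which is 33.3% of the 66, and 4 were called lower. Of the 189 called lower at day 3, 32 (16.9%) were called lower at day 0, which is 24.1% of the 133, and 0 were called higher. The median day 0 difference was 0.11 among the higher and -0.13 among the lower. The difference between the line differences of day 3 and day 0 passed for 92 of 14912 probe sets (0.617%), 61 (0.409%) with a positive and 31 (0.208%) with a negative change. Without FRI flc-3 day 0 replicate 3 this count was 73, and without FRI day 0 replicate 3 it was 62, the lowest. In a fit to only the 12 arrays it was 37.

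**Figure D4:**
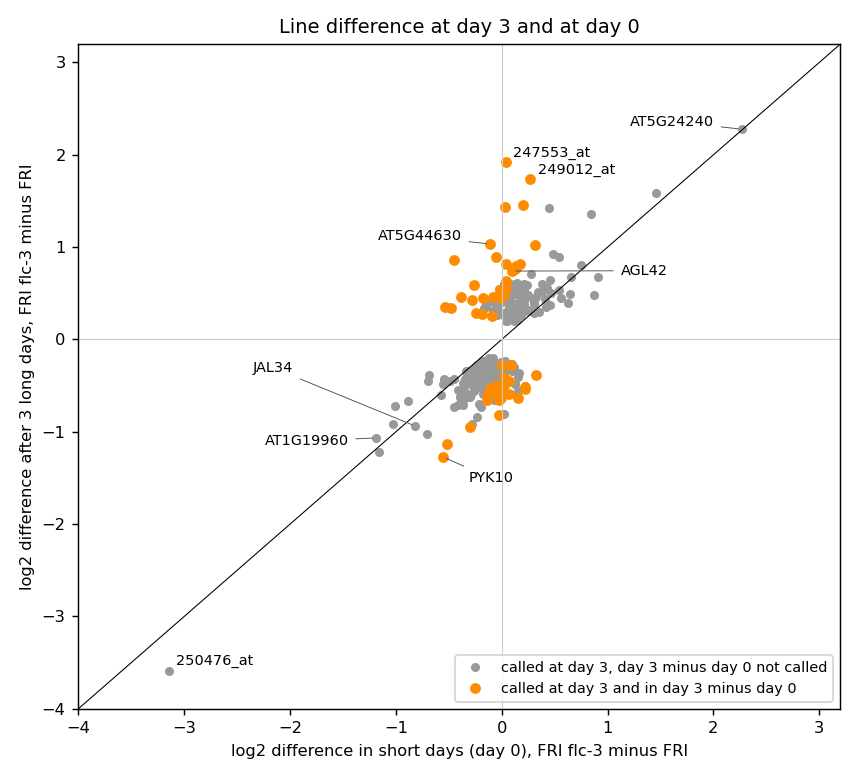
Each point is a probe set called at day 3. The x axis is its log2 difference at day 0 and the y axis that at day 3, both FRI flc-3 minus FRI, and the diagonal marks equal differences. Orange points also passed the test of day 3 minus day 0. AT5G24240 and 250476_at lie near the diagonal, and 247553_at and AT5G44630 lie near a day 0 difference of 0.

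Several loci that were higher at day 3 had shown little difference in short days. AGL42 gave 13.6, 17.8 and 13.0 in FRI flc-3, against 12.5, 14.8 and 11.1 in FRI at day 0, where the arrays overlapped, and the change from day 0 to day 3 in the line difference was 0.64 ± 0.13 (SE), adjusted p = 0.00585. FD gave 37.0, 35.8 and 22.5 in FRI flc-3, against 26.9, 28.4 and 25.5 in FRI at day 0, and its change of 0.47 ± 0.16 (SE), adjusted p = 0.234 did not pass. AT5G44630 gave 0.774, 6.40 and 5.01 in FRI flc-3, against 9.62, 5.01 and 2.61 in FRI at day 0, dim on all arrays, with a change of 1.15 ± 0.20 (SE), adjusted p = 0.00163. The change was 1.88 (adjusted p = 8.56e-08) for 247553_at and 1.47 (adjusted p = 1.64e-08) for 249012_at. AT1G54020 changed by 0.71 (adjusted p = 0.00585), AT4G19430 by 0.86 (adjusted p = 0.00258) and AT5G09300 by 0.59 (adjusted p = 0.00998). AT2G41410, a calmodulin-like protein, was lower in FRI flc-3 at day 0, with 208.1, 224 and 204.6 in FRI flc-3, against 324, 305 and 280.0 in FRI. At day 3 it was higher, with 392, 377 and 352 in FRI flc-3, against 280.5, 301 and 289 in FRI. Its difference was -0.48 (adjusted p = 9.31e-06) at day 0 and 0.35 (adjusted p = 0.000965) at day 3, both called, and the change was 0.83 ± 0.09 (SE), adjusted p = 3.58e-07. When the fit held the 12 arrays of both days alone, the change was not called for AGL42 (adjusted p = 0.0972), AT1G54020 (adjusted p = 0.131), AT5G09300 (adjusted p = 0.129) or AT3G15650 (adjusted p = 0.133). The change of AT5G09300 was also lost without FRI day 3 replicate 2 (adjusted p = 0.0535). AT3G15650 changed by 0.52 (adjusted p = 0.0205), a call lost without FRI day 0 replicate 3, FRI day 3 replicate 2 or 3, FRI flc-3 day 0 replicate 2, or FRI flc-3 day 3 replicate 1 or 3 (adjusted p 0.0558 to 0.0953).

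Lower loci also differed in when the difference appeared. PYK10 gave 589, 667 and 649 in FRI flc-3, against 995, 899.8 and 926 in FRI at day 0, already lower in FRI flc-3, and the line difference changed by -0.72 ± 0.10 (SE), adjusted p = 6.03e-05 by day 3. JAL22 was also called lower at day 0, with a difference of -0.52 (adjusted p = 0.000727). Its change by day 3 was -0.61 ± 0.13 (SE), adjusted p = 0.0108, a call lost without FRI flc-3 day 0 replicate 3 (adjusted p = 0.0571). JAL34 and JAL33 differed by -0.82 and -0.70 at day 0, both called, and their changes of -0.12 and -0.32 did not pass. GH9B8 gave 87.0, 97.7 and 89.6 in FRI flc-3, against 96.8, 101 and 83.8 in FRI at day 0, with overlapping arrays, and changed by -0.62 ± 0.12 (SE), adjusted p = 0.00442. AT5G01870 changed by -0.52 (adjusted p = 0.00848). AT1G29660, a GDSL-type lipase, had 56.9, 61.6 and 58.1 in FRI flc-3, against 86.4, 108 and 108 in FRI at day 3 and 125, 125 and 119.7 in FRI flc-3, against 122, 122 and 128 in FRI at day 0. The lines overlapped at day 0 and were apart at day 3, with a change of -0.63 ± 0.13 (SE), adjusted p = 0.00629. AT5G59330 had 391, 408 and 428 in FRI flc-3, against 657, 613 and 603 in FRI at day 3 and 619, 642 and 638 in FRI flc-3, against 606, 584 and 623 in FRI at day 0, a change of -0.66 ± 0.10 (SE), adjusted p = 0.000157. AT1G19960 differed by -1.18 at day 0 and -1.07 at day 3, with no call of a change. DFR was called lower at day 0 too (difference -0.33, adjusted p = 0.00477), and its change of -0.06 did not pass (adjusted p = 0.905).

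For 3 further lower loci the call of a change was lost when single arrays were left out. NAI1 gave 19.8, 42.3 and 30.0 in FRI flc-3, against 22.9, 22.4 and 24.6 in FRI at day 0, with FRI flc-3 replicate 2 high, and its change of -0.76 ± 0.18 (SE), adjusted p = 0.0352 was lost without any 1 of the 12 arrays other than FRI day 3 replicate 3 and FRI flc-3 day 0 replicate 1 (adjusted p 0.0553 to 0.158). AT5G41400 changed by -0.79 (adjusted p = 0.0289), lost without FRI day 0 replicate 1 or 3, FRI day 3 replicate 1 or 2, FRI flc-3 day 0 replicate 3, or FRI flc-3 day 3 replicate 2 or 3 (adjusted p 0.0658 to 0.133). AT1G64890 had 75.9, 64.1 and 94.5 in FRI flc-3, against 122, 95.8 and 102 in FRI at day 3 and 156, 160.4 and 183 in FRI flc-3, against 131, 127 and 131 in FRI at day 0. It was lower in FRI flc-3 at day 3 by -0.39 (adjusted p = 0.0422), and the change of -0.71 (adjusted p = 0.0121) was lost without FRI day 3 replicate 1, FRI flc-3 day 0 replicate 3 or FRI flc-3 day 3 replicate 2 (adjusted p = 0.0577, 0.0518 and 0.0675). Its call at day 3 itself was lost without FRI replicate 1 or 3 and without FRI flc-3 replicate 1 or 2 (adjusted p 0.0816 to 0.316).

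Most day 3 calls were made again on the arrays of days 5 and 7, which share no sample with those of day 3. All days were tested in 1 fit with the spread of each probe set pooled over the 36 arrays, so a probe set of low spread is more easily called on every day and the repeat calls are not independent. At day 5 limma called 1870 probe sets (12.5%) and at day 7 3509 (23.5%). Of the 146 called higher at day 3, 113 (77.4%) were called higher at day 5, which is 13.8% of the 819 called higher there (5.49% of those tested), and 3 were called lower. Of the 189 called lower at day 3, 154 (81.5%) were called lower at day 5, 14.7% of the 1051 (7.05%), and 1 was called higher. At day 7, 113 of the higher and 151 of the lower were called the same way, 77.4% and 79.9%, while 7 and 10 were called the opposite way. These are 6.55% of the 1726 called higher (11.6%) and 8.47% of the 1783 called lower (12%) at day 7. The median difference of the 146 was 0.11, 0.43, 0.47 and 0.67 at days 0, 3, 5 and 7, and that of the 189 was -0.13, -0.43, -0.52 and -0.85.

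**Figure D5:**
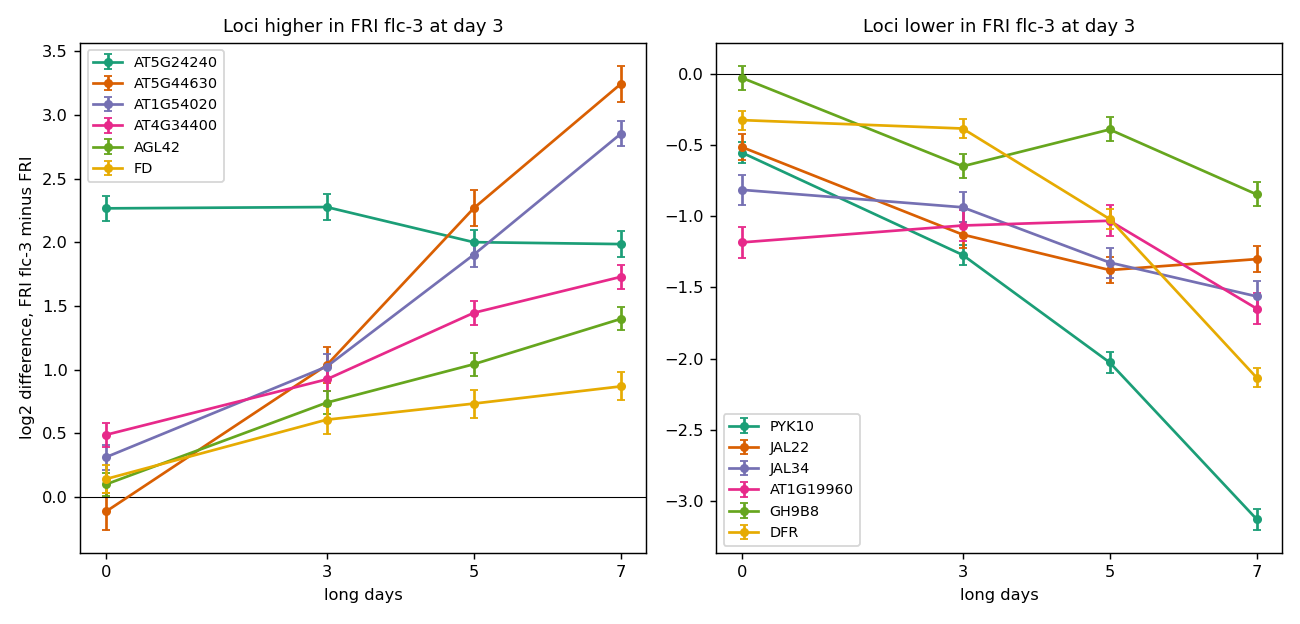
Log2 difference, FRI flc-3 minus FRI, with its SE (n = 3 arrays per line and day) at 0, 3, 5 and 7 long days. The left panel has 6 loci higher in FRI flc-3 at day 3 and the right panel 6 lower. AT5G24240 stays between 1.99 and 2.28, AT5G44630 and AT1G54020 reach 3.24 and 2.85 at day 7, and PYK10 is lower at each later day, at -3.13 on day 7.

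Day 3 was an early point of a widening difference for part of the named loci. The line difference of day 7 minus that of day 3 passed for 1504 probe sets (10.1%), 759 (5.09%) with a positive and 745 (5%) with a negative change. WSD1 had differences of 0.15, 0.57, 1.41 and 3.65 at days 0, 3, 5 and 7, and those of AT5G44630 were -0.11, 1.03, 2.27 and 3.24. THI2.1 likewise had 0.24, 0.46, 0.76 and 1.72. In these 3 loci the difference at day 7 was several times that at day 3. DFR gave -0.33, -0.39, -1.02 and -2.13, and AT5G59330 gave 0.07, -0.59, -1.81 and -3.96. At day 7 the anthocyanin enzymes AT4G14090 and AT5MAT differed by -1.54 and -1.66. AGL42 reached 1.04 at day 5 and 1.399 at day 7, and FD 0.73 and 0.87, where its step after day 3 did not pass (adjusted p = 0.343).

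At other loci the day 3 difference was not called in the same direction later, or was not called at day 3. AT5G26200 differed by -0.84 at day 3, -0.02 at day 5 and 0.37 at day 7 (adjusted p = 0.114), and the change from day 3 to day 7 was 1.22 ± 0.24 (SE), adjusted p = 0.000395. AT1G64890 differed by -0.39 at day 3 and 0.05 at day 7, a change that did not pass (adjusted p = 0.063). BCAT4, not called at day 3, differed by -1.79 at day 5 and -3.41 at day 7, so day 3 was the 1 day sampled on which its mean was higher in FRI flc-3. AT2G25450 differed by -0.73 at day 5 and -1.34 at day 7, again with day 3 as the 1 day of a positive difference, which did not pass on that day.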

How the data were processed

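RNA from the apical region was hybridized to ATH1 arrays, 1 array per sample. The values are signal intensity per probe set as the authors deposited them, and the submitters' processing notes name MAS5. Its version and scaling target are not given in the sources used here. The mean signal after trimming 2% at each end was 100.007 to 100.009 on all arrays, so no further scaling was applied.

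Signals were transformed as log2(signal + 16). The 64 control probe sets were left out, and a probe set entered the tests, 14912 in all, if 3 or more of the 36 arrays had it above their 40th percentile. That percentile was 21.7 to 23.3 on the 6 arrays, and a mean below the lowest of these is called dim. limma 3.58.1 in R 4.3.3 was fitted to all 36 arrays with 12 group means (24 residual degrees of freedom) and a trended eBayes. Tests were two-sided and adjusted by the Benjamini-Hochberg method over all tested probe sets, with a call at an adjusted p under 0.05.

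The annotation table names 1 gene for 13513 probe sets, of which 13436 matched a locus of the RefSeq annotation, and several for 503. It leaves 8730 without a name, and these are given by their identifiers. Each tested named locus is counted by its brightest probe set, and none of the named loci had a further tested probe set. Coordinates are not printed, as no build is named for the arrays.

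Named were for each direction the 14 called loci of largest difference with no overlap between arrays, the 6 of largest change from day 0 in each direction among loci called in both tests, up to 4 list members of smallest adjusted p, up to 2 unnamed probe sets in each direction, and PYK10, AT5G24240, WSD1 and THI2.1. Some further list members are given with values. The comparison, its members and the lists were chosen with earlier results of these data known. Alternatives were other offsets, normalizations, filters, array weights, no trend, a replicate block, a fit to the compared arrays, and leaving out each array. Same-numbered arrays of both lines at day 3 had deviations correlated at 0.091, -0.049 and -0.077, so the numbers were not taken to pair samples.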

Additional observations from a re-analysis of the deposited data

Results flagged for a closer look

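These results are listed because the line difference itself differed between days by limma's test of the difference. It did so for 92 probe sets between day 0 and day 3 and for 1504 between day 3 and day 7.

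From day 0 to day 3 the difference, FRI flc-3 minus FRI, moved down by these log2 amounts: AT5G41400 -0.79, NAI1 -0.76, PYK10 -0.72, AT1G64890 -0.71, AT5G59330 -0.66, AT1G29660 -0.63, GH9B8 -0.62, JAL22 -0.61 and AT5G01870 -0.52. It moved up in AT3G15650 and BCAT4 by 0.52 each, AT5G09300 by 0.59, AGL42 by 0.64, AT1G54020 by 0.71, AT2G25450 by 0.82, AT2G41410 by 0.83, AT4G19430 by 0.86, AT5G44630 by 1.15, 249012_at by 1.47 and 247553_at by 1.88.

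From day 3 to day 7, among the named loci of largest day 3 difference, it moved down in PYK10 (-1.85), AT5G64110 (-1.66), AT5G01870 (-1.10), JAL34 (-0.62) and AT1G19960 (-0.58). It moved up in AT3G15650 by 0.60, AGL42 by 0.66, AT5G09300 by 0.69, AT4G34400 by 0.81, AT5G26200 by 1.22, AT3G28500 by 1.49, CYP71B22 by 1.53, AT1G54020 by 1.83, AT4G19430 by 1.92, AT5G44630 by 2.21 and WSD1 by 3.09. In AT5G26200 the difference was below 0 at day 3 and above 0 at day 7, where it was not called, while in the others it widened. Causes were not tested.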

How the results depend on the processing

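The day 3 count of 335 was 221 when only the 6 arrays were fitted, 220 without FRI replicate 2, and 220 to 265 over all fits that left out 1 array. The smaller fits have fewer residual degrees of freedom. Over the 12 other alternatives the count ran from 221 to 471 (array weights), and the share higher in FRI flc-3, leaving out arrays included, from 39.4% to 47.4%. The day 3 minus day 0 count of 92 was 37 when only their 12 arrays were fitted, 62 to 111 leaving out 1 array, and 37 to 112 otherwise. The day 7 minus day 3 count of 1504 was 1263 to 1454 leaving out 1 array and 1118 to 1581 otherwise. With the replicate block the 3 counts were 306, 80 and 1381, and of the named values AT1G52100 lost its call at day 3 (adjusted p = 0.0774). No named value changed sign while called. Of 85 named day 3 values 71 kept their side of the threshold in all alternatives run, 10 lost a call in at least 1 and 4 gained one (BCAT4, GID1C, SMZ and UFO). Of 20 named changes from day 0 to day 3, 9 kept it and 11 lost it in at least 1. Sizes depend on the offset: of the 28 loci of largest difference, 8 were over 1.5 times larger at an offset of 1 and 18 over 1.5 times smaller at an offset of 64. The day 3 calls lost in alternatives other than leaving out 1 array were those of AT1G52100 (offset 1, 10th percentile offset, no filter, replicate block, only the 6 arrays; adjusted p 0.0774 to 0.217), AT1G64890 (offset 64, no filter, no trend, only the 6 arrays; 0.0514 to 0.166), THI2.1 and WSD1 as given above, and AT1G02190 and LHCB4.2 (only the 6 arrays; 0.126 and 0.0869). The changes from day 0 so lost were those of AT5G41400 (2 offsets, no filter, array weights, only the 12 arrays; 0.0547 to 0.133), NAI1 (2 offsets, no filter, only the 12 arrays; 0.0658 to 0.143), BCAT4 (2 offsets, only the 12 arrays; 0.0749 to 0.0871), AT2G25450 (2 offsets), AT5G01870 (quantile normalization; 0.0509), and, in the fit to only the 12 arrays, JAL22 (0.0723), AT1G64890 (0.0635), AGL42, AT1G54020, AT5G09300 and AT3G15650. The precision of small differences is limited by 3 arrays per line.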
